A study of Mus musculus with 14 samples.

Results

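Genes of sterol and fatty acid synthesis were followed in mouse embryonic fibroblasts during the first days of reprogramming. The set was a list of 33 genes, and a gene was taken from the probes whose platform annotation gave its symbol alone, with the brightest such probe where there were several. Of the 33 genes, 32 were measured, among 19938 genes in all. Acat2 had no probe row of its own and was not analysed here. The 32 genes comprised 6 mevalonate enzymes, 11 enzymes from squalene to cholesterol, 5 genes of the sterol-sensing system, 2 sterol transport genes and 8 genes of fatty acid and glycerolipid synthesis. The mevalonate and squalene-to-cholesterol enzymes together are called the 17 sterol enzymes here.

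Cholesterol is built from acetyl-CoA through mevalonate, isoprenoid units, squalene and a chain of ring modifications, and fatty acids are built from the same acetyl-CoA. Both routes are controlled by the SREBP transcription factors (Srebf1 and Srebf2), which are held in the endoplasmic reticulum by SCAP and the INSIG proteins when sterol is plentiful. When sterol is low, SCAP carries them to the Golgi, where they are cut free and move to the nucleus to switch on most of the enzymes of the pathway. In dividing cells the pathway supplies membrane.

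Mouse embryonic fibroblasts are primary cells grown from embryos. They were infected with retroviruses for Sox2, Klf4 and Oct4 (SKO), 3 transcription factors that can turn fibroblasts into pluripotent cells, or with a virus for green fluorescent protein (GFP). On day 2 after the last infection every culture was moved to embryonic stem cell medium with serum and LIF, a cytokine that maintains mouse stem cells, and vitamin C was present at 50 µg/ml or absent from then on. Vitamin C is a cofactor of iron-dependent hydroxylases and demethylases. The 4 groups were SKO cells without vitamin C on days 3, 4, 5, 6, 8 and 10 (6 arrays), SKO cells with vitamin C on the same days (6 arrays), GFP cells without vitamin C on day 3 (1 array) and GFP cells with vitamin C on day 3 (1 array). Each condition and day was measured on 1 array without a replicate, so the p-values measure the scatter between days and arms of 1 time course and not the spread between independent cultures, and the number of arrays limits the precision. In these cultures only some cells of an infected dish are reprogrammed, and the arrays give the mean of all cells.

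The 14 arrays had medians between 5.19 and 5.28 on the log2 scale, the scale of all values below. Pou5f1, the gene of Oct4, lay between 4.05 and 4.10 on the GFP arrays and between 11.19 and 12.58 on the SKO arrays, and the groups did not overlap. The mean of 12 fibroblast markers was 10.80 and 10.84 on the GFP arrays and between 10.05 and 10.33 on the SKO arrays. Paired arrays of a day shared deviations from their arm's mean (Pearson r between 0.248 and 0.677 across genes), which is the basis for comparing them by day.

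The stretch before a gene's start can hold the sequences through which these enzymes are usually controlled: an SREBP element together with boxes for NF-Y (CCAAT) and Sp1 (GGGCGG). RefSeq promoter windows of the GRCm38.p6 build, from 250 bases before to 50 after the start, were available for 25 of the 32 genes (33 windows, since some genes have several starts) and were searched on both strands. A gene was counted where any of its windows held the motif. The SREBP element TCACNCCAC was found for 1 of the 25 genes, Hmgcs1, and for 1.44% of all 27025 genes with a window. The palindrome TCACGTGA was found for 0 of the 25 and for 1.12% of all genes. CCAAT was found for 21 of the 25 genes (84.0%) against 41.1% of all genes, the 14 sterol enzymes with a window all among them, though not in every window of theirs. GGGCGG was found for 20 of the 25 genes (80.0%) against 38.2%, including 13 of the 14 sterol enzymes. Among the fatty acid genes with a window, CCAAT was found for 3 of 6 and GGGCGG for 2 of 6. The windows of Acaca, Lpin1 and Elovl6 held neither. That of Acaca (from chr11:84195188) lies far inside the gene, which begins at 84129635. That of Lpin1 (chr12:16610917-16611216, minus strand) also lies far inside its gene, which reaches to 16653903. Matches of different motifs can overlap, and a match only describes these letters. The shares over all genes were not matched for signal. The 32 members all had mean signals above the median of the measured genes (5.53). Other forms of an element and sites outside the windows were not searched, so a missing match does not show that a gene lacks the element. The window of Hmgcs1, which makes HMG-CoA and feeds the mevalonate pathway, is shown because it alone held the SREBP element, in capitals at position -137 from the start (chr13:119690101-119690400, plus strand). It also held 4 CCAAT boxes, in lower case. The windows of Nsdhl (chrX:72918271-72918570, plus strand), a sterol dehydrogenase that removes methyl groups from the ring, and Idi1 (chr13:8885356-8885655, plus strand), the isomerase of the isoprenoid units, are shown with CCAAT or its reverse complement ATTGG in capitals. They hold 4 and 2 such boxes. Both were chosen after their values were seen, because they had the smallest adjusted p in the comparison of day 10 with day 3 described further on.
Hmgcs1: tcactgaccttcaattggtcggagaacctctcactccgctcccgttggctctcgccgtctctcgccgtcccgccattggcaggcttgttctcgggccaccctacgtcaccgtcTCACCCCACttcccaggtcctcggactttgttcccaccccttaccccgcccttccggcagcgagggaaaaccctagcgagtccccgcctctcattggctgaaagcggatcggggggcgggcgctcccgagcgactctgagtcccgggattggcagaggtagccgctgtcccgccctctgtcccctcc
Nsdhl: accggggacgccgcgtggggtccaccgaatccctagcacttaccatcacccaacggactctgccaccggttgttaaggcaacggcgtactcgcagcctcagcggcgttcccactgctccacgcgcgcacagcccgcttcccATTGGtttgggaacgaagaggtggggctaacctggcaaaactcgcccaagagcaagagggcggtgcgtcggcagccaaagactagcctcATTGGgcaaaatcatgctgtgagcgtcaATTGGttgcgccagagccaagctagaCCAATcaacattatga
Idi1: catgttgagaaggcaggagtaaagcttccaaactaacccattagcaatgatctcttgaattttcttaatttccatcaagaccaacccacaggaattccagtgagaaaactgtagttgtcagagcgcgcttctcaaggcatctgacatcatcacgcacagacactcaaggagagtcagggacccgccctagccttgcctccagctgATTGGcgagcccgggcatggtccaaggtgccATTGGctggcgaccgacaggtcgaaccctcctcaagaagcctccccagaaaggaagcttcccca

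The effect of vitamin C in SKO cells was read from the difference between the treated and the untreated array of each of the 6 days. None of the 32 genes was called higher or lower (limma, adjusted over all genes, threshold 0.05), against 0.642% of all genes called higher and 0.291% called lower. The median difference was 0.05 over the 32 genes and -0.01 over all genes. At an unadjusted p under 0.05 there were 2 of the 32, Ebp and Insig1, and 2305 of the 19938 genes. Since these are mixed cultures, fewer cells of a type and less RNA per cell cannot be told apart in any value given here.

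Ebp, an isomerase of the sterol ring, was the member with the largest difference. Without vitamin C its signal on days 3, 4, 5, 6, 8 and 10 was 7.32, 6.80, 7.30, 6.85, 6.89 and 7.66. With vitamin C it was 7.42, 7.50, 7.64, 7.41, 7.24 and 7.87 on the same days. The treated array was the higher one on 6 of 6 days, by 0.10 to 0.70, although the arms overlapped across days. The mean difference was 0.38 ± 0.10 (SE), with an adjusted p of 0.111.

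Insig1 encodes an endoplasmic reticulum anchor of SCAP and is itself an SREBP target. It differed by 0.21 ± 0.09 (SE), higher with vitamin C on 5 of 6 days, with an adjusted p of 0.411. Its signal ran from 9.91 to 10.37 without and from 10.12 to 10.50 with vitamin C, so the arms overlapped. The other members had mean differences between -0.14 (Insig2, the second INSIG protein) and 0.20 (Dhcr7, a reductase of the last steps to cholesterol). Mean differences were 0.18 for both Mvd (mevalonate diphosphate decarboxylase) and Fdft1 (squalene synthase), each higher on 5 of 6 days.

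The sign of the difference was not the same through the course. The treated array was the higher one for 25, 26, 28 and 23 of the 32 genes on days 3, 4, 5 and 6, but for 12 and 7 of them on days 8 and 10. The median differences on those days were 0.07, 0.26, 0.12, 0.19, -0.06 and -0.16, while the medians of all genes lay between -0.03 and 0.01. The slope of the difference per day was below 0 for 30 of the 32 genes, all 17 sterol enzymes among them, and for 10399 of the 19938 genes. Npc1 (lysosomal sterol export) and Lpin1 (a phosphatidate phosphatase) were the exceptions, each with a slope of 0.01 per day.

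None of these slopes passed the test, against 0.01% of all genes called with a rising and 0.0251% with a falling difference. An unadjusted p under 0.05 was found for 4 of the 32 and for 1569 of the 19938 genes. The steepest was that of Elovl6, which elongates palmitate to stearate, at -0.13 ± 0.05 (SE) per day with an adjusted p of 0.523. Its difference was 0.08, 0.38 and 0.44 on days 3, 4 and 5 and -0.14, 0.06 and -0.75 on days 6, 8 and 10. Fasn, the fatty acid synthase, had differences of 0.25, 0.29, 0.12 and 0.31 on days 3 to 6 and of -0.60 and -0.30 on days 8 and 10. Scd1, a stearoyl-CoA desaturase, had 0.26, 0.31, 0.06 and 0.22 and then -0.33 and -0.25. For both genes the treated array was thus the higher one on each of days 3 to 6 and the lower one on days 8 and 10.

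Outside the 32 genes, 2 of 18 measured genes of sterol uptake, storage, efflux and LXR signalling passed the vitamin C test. Vldlr, a lipoprotein receptor, fell by 0.58 ± 0.10 (SE; adjusted p 0.0238). It measured 7.50, 7.35, 7.05, 7.05, 6.98 and 6.80 without vitamin C and 6.63, 6.44, 6.65, 6.55, 6.71 and 6.27 with it, the treated arrays all lying below the untreated ones. Cyp27a1, a mitochondrial sterol hydroxylase, rose by 0.52 ± 0.08 (SE; adjusted p 0.0146), from 4.82 to 5.16 without vitamin C to 5.37 to 5.52 with it, again without overlap. Both genes are described because the test on the same arrays called them, so the lack of overlap adds no support to the calls. None of the 8 measured genes of SREBP processing and turnover, 9 of isoprenoid branches, 24 of other fatty acid and glycerolipid synthesis or 10 of fatty acid oxidation was called.

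**Figure D1:**
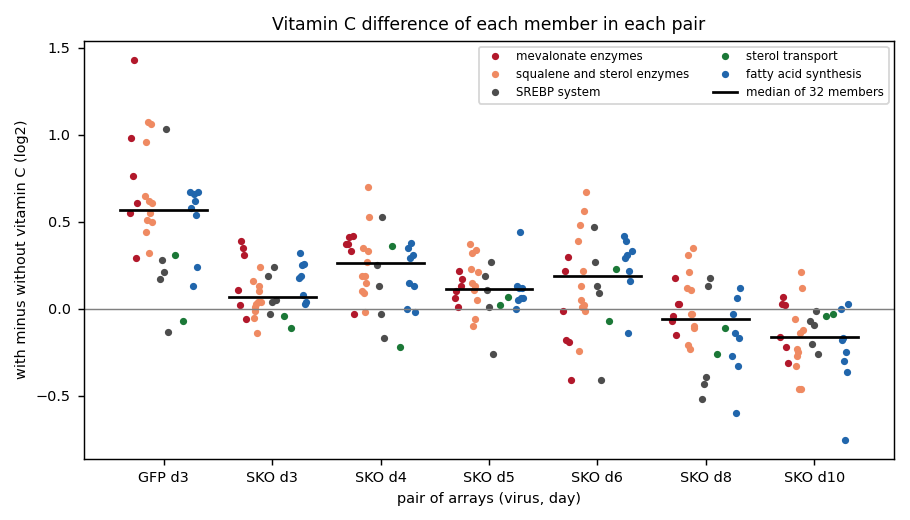
Difference between the array with and the array without vitamin C (log2, vertical axis) for each of the 32 genes in each pair of arrays (virus and day, horizontal axis); points are genes coloured by role and the bar is their median. The median is 0.566 in the GFP pair and moves from 0.262 on SKO day 4 to -0.162 on SKO day 10.

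In GFP cells the pair of day 3 differed more. The treated array was the higher one for 30 of the 32 genes, for all 17 sterol enzymes and for all 8 fatty acid genes. The median difference was 0.57 against 0.02 over all genes. There were 15 members higher by over 1.5-fold, against 4.26% of all genes in that pair. In the SKO pair of the same day 0 of the 32 were past that fold against 2.59% of all genes, and in the SKO pair of day 4 there was 1, Ebp, against 3.51%. The GFP values rest on 1 array each and have no replicate.

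Mvd measured 6.96 without and 8.39 with vitamin C in GFP cells, a difference of 1.43. Tm7sf2, a sterol reductase, measured 6.87 and 7.94. Ebp measured 6.08 and 7.14. Of the other mevalonate enzymes, Mvk (mevalonate kinase) and Pmvk (phosphomevalonate kinase) differed by 0.98 and 0.76, Fdps (farnesyl diphosphate synthase) by 0.61, Hmgcs1 by 0.55 and Idi1 by 0.29.

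Of the other enzymes from squalene to cholesterol, all were higher with vitamin C in this pair, by 0.32 to 0.96. Lss, which closes squalene oxide into the first sterol, differed by 0.96, Fdft1 by 0.65, Nsdhl by 0.62 and Dhcr7 by 0.61. Hsd17b7, a ketone reductase of the same demethylation, differed by 0.55, Cyp51, which removes a methyl group from lanosterol, by 0.51, Sc5d, a sterol desaturase, by 0.50, Sqle (squalene epoxidase) by 0.44 and Msmo1, the sterol methyl oxidase, by 0.32.

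Within the sensing system, Insig1 went from 9.45 to 10.48 while Insig2 differed by -0.13. Srebf1, Srebf2 and Scap, whose products form the switch itself, differed by 0.17, 0.28 and 0.21. Stard4, a cytosolic sterol carrier, differed by 0.31 and Npc1 by -0.07. Among the fatty acid genes, Acly (makes cytosolic acetyl-CoA from citrate) and Lpin1 differed by 0.67, Fasn by 0.66, Elovl6 by 0.62, Acss2 (makes acetyl-CoA from acetate) by 0.58, Scd1 by 0.54, Scd2 (the other desaturase) by 0.24 and Acaca (acetyl-CoA carboxylase) by 0.13. All enzymes other than Acaca and Scd2 differed by more than Srebf1, Srebf2 and Scap did in this pair. The margin over Srebf2 (0.28) was narrow for Idi1 (0.29) and Msmo1 (0.32), and the pair had no replicate.

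Whether the GFP pair differed from the 6 SKO pairs was tested as an interaction. The vitamin C difference was larger in the GFP pair than in the mean of the SKO pairs for 31 of the 32 genes. Npc1 was the exception, and the median was 0.48 against 0.02 over all genes. None was called, against 0% of all genes called higher and 0% called lower, and 11 of the 32 genes and 1377 of all genes had an unadjusted p under 0.05. The largest was that of Mvd at 1.25 ± 0.25 (SE), with an adjusted p of 0.580, followed by Tm7sf2 at 1.10 ± 0.24 (adjusted p 0.613). The GFP pair was of day 3 and the SKO mean ran over days 3 to 10, so virus and day were mixed. Set against the SKO pair of day 3 alone, 4 members were not larger in the GFP pair. They were Idi1 (0.29 against 0.31), Srebf1 (0.17 against 0.19), Acaca (0.13 against 0.19) and Insig2 (-0.13 against 0.05). All other members were larger there, Npc1 among them. In the GFP pair the mean of 19 cell cycle genes was 7.29 without and 7.11 with vitamin C, and the mean of 10 macrophage markers 4.88 and 5.21. Their part in the GFP difference was not tested.

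What the 3 factors had changed by day 3 was asked by setting the SKO pair of day 3 against the GFP pair. Of the 32 genes, 5 were higher in SKO cells, against 9.22% of all genes, and 0 were lower, against 8.43%. They were Ebp (0.76 ± 0.20 SE, adjusted p 0.0211), Hsd17b7 (0.72 ± 0.20, 0.0238), Pmvk (0.70 ± 0.20, 0.0272), Stard4 (0.56 ± 0.17, 0.0354) and Insig2 (0.51 ± 0.17, 0.0482). The share called, 15.6% of the 32, was close to the 17.6% of all genes called in either direction. At an unadjusted p under 0.05 there were 10 of the 32, and 5936 of the 19938 genes.

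Hsd17b7 measured 8.02 and 8.57 in GFP cells and 8.95 and 9.08 in SKO cells, without and with vitamin C. Pmvk measured 5.54 and 6.30 in GFP cells and 6.42 and 6.82 in SKO cells. Insig2 measured 6.87 and 6.74 in GFP cells and 7.29 and 7.34 in SKO cells. In these 3 genes both SKO arrays lay above both GFP arrays. The same held for Stard4 at 7.13 and 7.43 against 7.86 and 7.83, and for Ebp at 6.08 and 7.14 against 7.32 and 7.42. These genes are described because the test on the same arrays called them, so this order adds no support to the calls. The share of all genes in this order was not counted.

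The genes of the switch had the opposite sign. Srebf2 measured 9.05 and 9.34 in GFP cells and 8.69 and 8.66 in SKO cells, a difference of -0.52 ± 0.18 (SE; adjusted p 0.0657). Scap measured 8.08 and 8.28 against 7.67 and 7.71, a difference of -0.49 ± 0.16 (adjusted p 0.0522). Srebf1 differed by -0.12 and Npc1 by -0.39 (adjusted p 0.741 and 0.0964). Hmgcs1 differed by 0.54 ± 0.18 (adjusted p 0.0532) and Idi1 by 0.47 ± 0.18 (adjusted p 0.0929). None of these passed the threshold. The 8 fatty acid genes had differences between -0.35 (Fasn) and 0.33 (Scd1) and none was called.

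The result depended on the arm that was read. Without vitamin C, 25 of the 32 genes and 16 of the 17 sterol enzymes were higher in SKO than in GFP cells, with medians of 0.36 and 0.46. With vitamin C, 11 of the 32 and 7 of the 17 were, with medians of -0.11 and -0.06, against -0.02 and -0.04 over all genes in the 2 arms. Mvd differed most between the arms: the SKO array was the higher one by 0.29 without vitamin C, and with vitamin C it measured 7.60 against 8.39 in GFP cells. The untreated GFP array thus lay low and the treated GFP array high for most members. Leaving out the untreated GFP array or the untreated SKO array of day 3 left 0 members called higher, leaving out the treated SKO array left 1, and with SKO day 4 in place of day 3 there were 0.

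**Figure D2:**
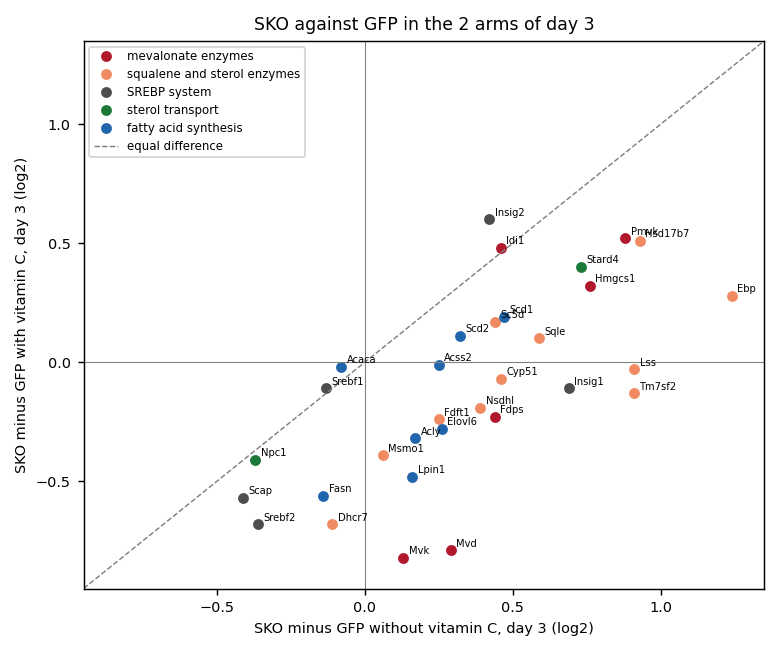
SKO minus GFP on day 3 (log2) without vitamin C (horizontal axis) against the same with vitamin C (vertical axis), 1 point per gene coloured by role, with a dashed line of equal difference. Most points lie below the line: the median is 0.36 without and -0.11 with vitamin C.

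Other genes moved in this comparison as well. In the isoprenoid branches Pggt1b (0.83) and Ggps1 (0.59), which act in protein geranylgeranylation, and Nus1 (0.67), which acts in dolichol synthesis, rose and Fntb, a farnesyltransferase subunit, fell by 0.52 (adjusted p 0.0029, 0.035, 0.0092 and 0.038). Among 18 genes of sterol uptake and efflux 3 rose and 5 fell. Cyp7b1, an oxysterol hydroxylase, fell by 1.87 and the lipoprotein gene Apoe by 1.20, while Stard5, a sterol-binding protein, rose by 1.38 and the efflux pump Abca1 by 1.12. Among 24 further fatty acid and glycerolipid genes 5 rose and 3 fell, with Acsl4, an acyl-CoA synthetase for polyunsaturated fatty acids, rising by 1.55. Of 10 fatty acid oxidation genes 1 rose and 1 fell: Acadvl, an acyl-CoA dehydrogenase for very long chains, rose by 0.68 (adjusted p 0.020) and Pdk4, a kinase that limits glucose oxidation, fell by 1.20 (0.00087). All 19 cell cycle genes rose, with a median of 1.07 and list means of 7.29 and 7.11 in GFP cells and 8.19 and 8.42 in SKO cells of day 3, and 7 of 12 fibroblast markers fell. Their part in the members' differences was not tested.

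The 12 SKO arrays were next compared across days. From day 3 to day 10, 13 of the 32 genes fell, against 5.64% of all genes, and 0 rose, against 6.55%. Those that fell were 5 of the 6 mevalonate enzymes, 5 of the 11 squalene-to-cholesterol enzymes and 3 of the 8 fatty acid genes. None of the 5 genes of the sensing system and neither of the 2 transport genes was called. The median difference was -0.52 over the 32 genes and -0.02 over all genes.

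Nsdhl had the smallest adjusted p. It measured 8.29 and 8.33 on day 3 and 7.56 and 7.42 on day 10, without and with vitamin C, and fell by 0.82 ± 0.14 (SE; adjusted p 0.00316). Its signal on days 4, 5, 6 and 8 lay between, from 7.78 to 7.98 without and from 7.89 to 8.11 with vitamin C. Idi1 measured 8.75 and 9.06 on day 3 and 8.11 and 7.89 on day 10, and fell by 0.90 ± 0.18 (adjusted p 0.00637). In both genes the 2 arrays of day 10 lay well below the 2 of day 3. They were picked by the test on the same arrays, so this order adds no support to the calls.

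Of the other mevalonate enzymes Mvd fell by 0.76 ± 0.16 (adjusted p 0.00939), Fdps by 0.74 ± 0.17 (0.0123), Pmvk by 0.62 ± 0.17 (0.0334) and Hmgcs1 by 0.58 ± 0.16 (0.0338). Mvk, the remaining one, had a difference of -0.41 ± 0.15 that missed the threshold (adjusted p 0.108). Past squalene, Cyp51 fell by 0.70 ± 0.15 (adjusted p 0.00949), Lss by 0.66 ± 0.20 (0.0494), Sqle by 0.61 ± 0.18 (0.0474) and Msmo1 by 0.56 ± 0.16 (0.0419). Hsd17b7 at -0.57 (adjusted p 0.0538) and Sc5d at -0.49 (0.0580) lay just outside the threshold. Tm7sf2 had -0.37, Fdft1 -0.15 and Dhcr7 -0.09, with adjusted p of 0.165, 0.625 and 0.847.

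Ebp was the one sterol enzyme with a positive difference. It measured 7.32 and 7.42 on day 3 and 7.66 and 7.87 on day 10, 0.39 ± 0.17 (SE) higher, with an adjusted p of 0.169. Both day 10 arrays lay above both day 3 arrays. For the other 16 sterol enzymes both day 10 arrays lay below both day 3 arrays. That order held in 27 of the 32 genes and in 5723 of the 19938 genes.

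Among the fatty acid genes Fasn measured 8.36 and 8.61 on day 3 and 7.87 and 7.57 on day 10, and fell by 0.77 ± 0.22 (adjusted p 0.0411). Scd2 measured 11.42 and 11.45 on day 3 and 10.97 and 10.61 on day 10, and fell by 0.65 ± 0.16 (0.0236). Acaca fell by 0.64 ± 0.16 (0.0254). All 3 were lower on day 10 in both arms, which adds no support to calls made on the same arrays. Elovl6 had -0.67 and Acly -0.56 (adjusted p 0.0993 and 0.0545), Acss2 -0.39, Lpin1 -0.30 and Scd1 -0.17, none of them called. In the sensing system the differences ran from -0.13 (Insig1) to 0.33 (Insig2), with 0.07 for Srebf1 and 0.19 for Srebf2, and Stard4 and Npc1 had -0.09 and -0.22. The values of the sensing genes overlapped those of some enzymes, such as Dhcr7, and the difference between the groups of genes was not tested.

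From day 3 to day 10 most members had the same direction in both arms, but the size differed. Without vitamin C 27 of the 32 genes were lower on day 10 than on day 3 (median -0.35), and with vitamin C 29 were (median -0.65). Between days 5 and 10 the mean of the arms was lower in 28 of the 32 (median -0.32) and between days 4 and 8 in 23 (median -0.07). In the latter interval the untreated arm had 11 lower and 21 higher, and the treated arm 27 lower and 5 higher. The count of calls depended on single arrays. It was 12 without the untreated day 10 array, 3 without the untreated day 3 array, and 1 without the treated array of either day. It was 1 for day 10 against day 5, where Idi1 had -0.77 and Msmo1 -0.73, and 0 for day 8 against day 4. The share of all genes called under each of these settings is not given here. A loss of calls in the members alone and in all genes thus cannot be told apart from these counts.

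**Figure D3:**
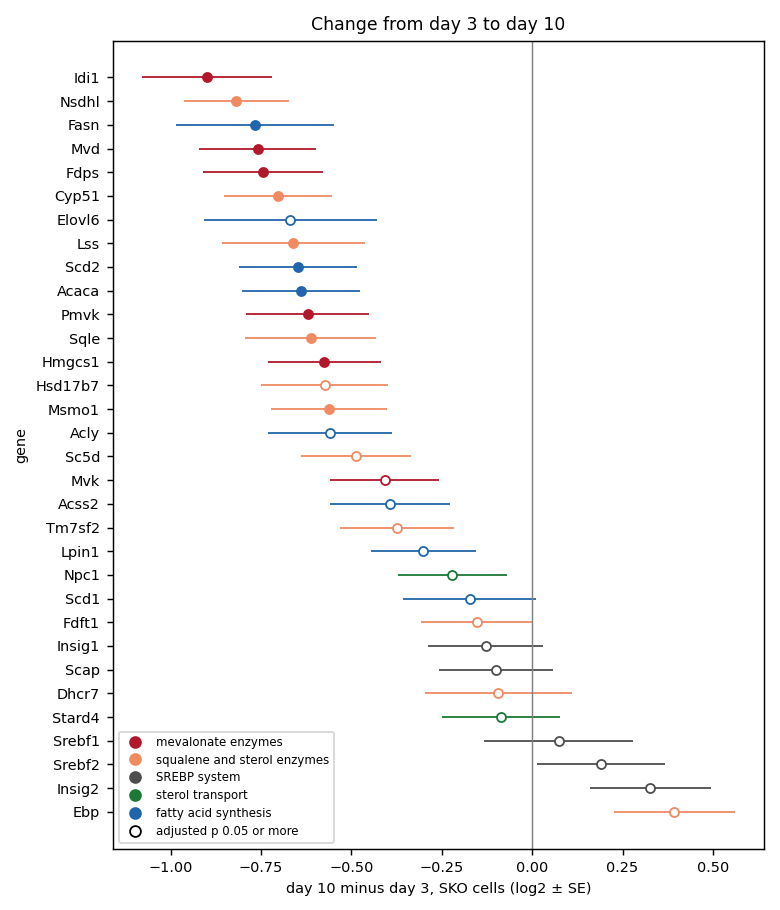
Difference between day 10 and day 3 in SKO cells (log2, horizontal axis; bars are 1 SE of the limma fit, 2 arrays a day) for the 32 genes in order of size, coloured by role; filled points passed the adjusted threshold. The 13 filled points all lie below 0, from Idi1 at -0.90 to Msmo1 at -0.56, and 4 genes lie above 0.

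Other lipid genes moved over the same interval. Me1, which makes NADPH for lipid synthesis, fell by 1.09, from 10.36 and 10.28 to 9.28 and 9.17 (adjusted p 0.0037). The desaturase Fads2 fell by 0.89 (0.0023), and the lipoprotein receptor Lrp8 by 1.32 (0.0024). Rises were seen for the LXR targets Abca1 (1.01, 0.0068) and Apoe (0.93, 0.0056), for Cyp7b1 (1.29, 0.00096) and for the fatty acid elongase Elovl7 (0.75, 0.031). Of the uptake and efflux list 4 of 18 rose and 1 fell, of the further fatty acid and glycerolipid list 1 of 24 rose and 2 fell, and of the isoprenoid branches 2 of 9 fell (Fntb by 0.60 and Nus1 by 0.53). Ppargc1a, a coactivator of oxidative metabolism, rose by 1.36 (0.0072), the only one of 10 fatty acid oxidation genes called.

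Marker lists of the cell cycle and of other cell types also changed between these days. Of 19 cell cycle genes 18 fell from day 3 to day 10 (median -0.79), the list mean going from 8.19 and 8.42 to 7.40 and 7.48. Of 10 macrophage markers 8 rose (median 1.32), the list mean going from 4.58 and 4.74 to 6.12 and 6.00. Of 10 pluripotency markers 4 rose, Fbxo15 by 3.74 and Nanog by 1.16 among them. The part of these in the members' fall was not tested.

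**Figure D4:**
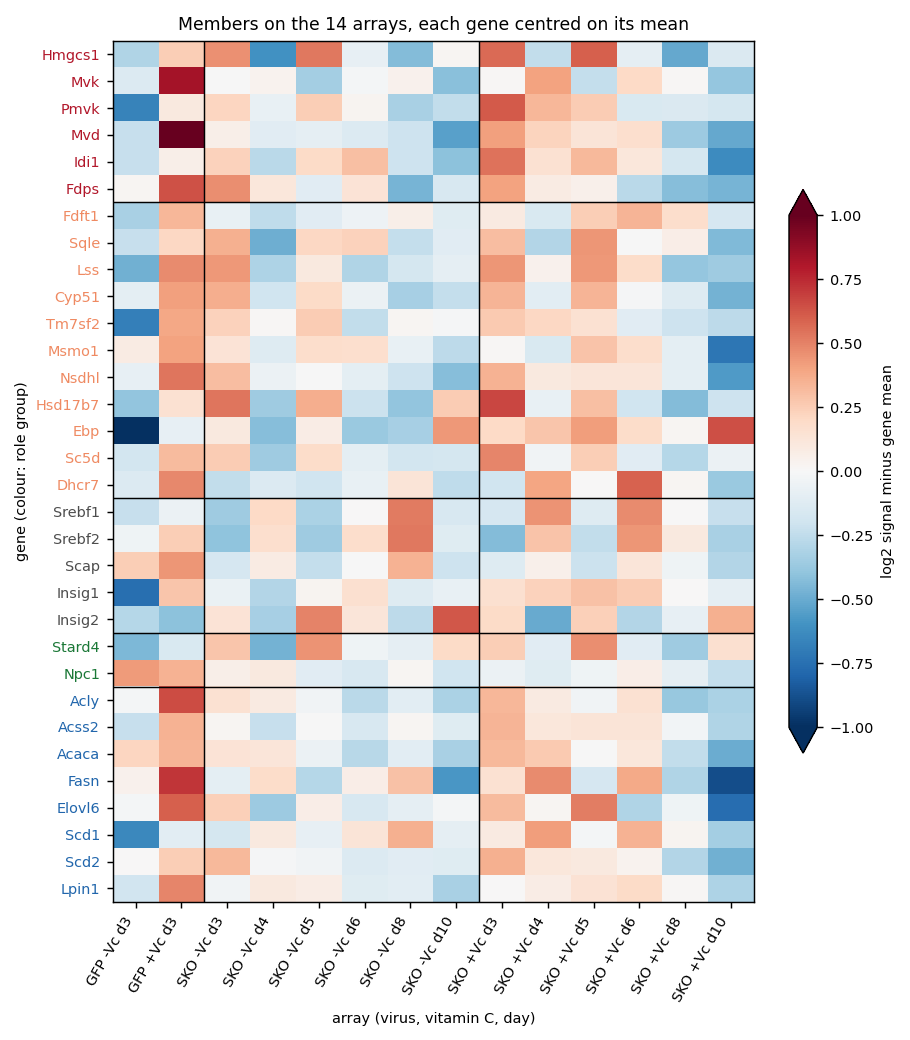
Log2 signal of the 32 genes (rows, grouped by role and coloured by group) on the 14 arrays (columns), each gene centred on its mean over the arrays; the colour scale is cut at 1 and -1. The mean of the 32 genes is highest on the treated GFP array (8.48) and lowest on the treated SKO array of day 10 (7.84).

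A change in any direction over the 6 days was tested next. It was called in 13 of the 32 genes, against 18.9% of all genes, with ranges of the daily means from 0.70 (Cyp51) to 1.06 (Fasn). The 13 were Hmgcs1, Mvd, Idi1, Fdps, Sqle, Cyp51, Msmo1, Nsdhl and Hsd17b7 of the sterol enzymes, Srebf2 and Insig2 of the sensing system, Stard4 and Fasn. Hmgcs1 had the smallest adjusted p (0.00238), with a range of 1.03. The sterol enzymes had their highest daily mean on day 3 in 11 of 17 genes and their lowest on day 8 in 7 and on day 10 in 7. The count was 3 without day 3 and 5 without day 10, 2 within days 3, 5 and 10 and 0 within days 4, 6 and 8.

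The course was not smooth in several members, and an up-and-down from day 3 to day 6 was computed as the mean of day 4 against its neighbours and of day 5, with the sign turned, against its own. A negative value means that days 4 and 6 lay below days 3 and 5. It was negative and called in 7 of the 32 genes, against 5.94% of all genes, and positive and called in 2, against 6.53%. The 7 were Hmgcs1 (-0.89 ± 0.12 SE, adjusted p 0.00336), Insig2 (-0.65 ± 0.13, 0.0107), Stard4 (-0.64 ± 0.13, 0.00992), Hsd17b7 (-0.62 ± 0.14, 0.0161), Sqle (-0.59 ± 0.14, 0.0212), Sc5d (-0.43 ± 0.12, 0.0386) and Cyp51 (-0.41 ± 0.12, 0.0445). The 2 positive ones were Srebf2 (0.57 ± 0.14, 0.0222) and Mvk (0.40 ± 0.12, 0.0493), and Srebf1 at 0.54 ± 0.16 missed the threshold (0.0513).

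Hmgcs1 measured 9.32, 8.26, 9.39, 8.78, 8.43 and 8.88 on days 3, 4, 5, 6, 8 and 10 without vitamin C. With vitamin C it measured 9.43, 8.62, 9.46, 8.77, 8.35 and 8.72. Days 3 and 5 were the 2 highest days in both arms. Srebf2 ran the other way, with 8.69, 9.26, 8.74, 9.27, 9.62 and 8.97 without vitamin C and 8.66, 9.38, 8.85, 9.54, 9.19 and 8.77 with it.

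Stard4 followed the course of Hmgcs1, with 7.86, 7.11, 8.03, 7.54, 7.49 and 7.77 without vitamin C and 7.83, 7.47, 8.05, 7.47, 7.23 and 7.74 with it. Insig2 measured 7.29, 6.82, 7.65, 7.27, 6.89 and 7.77 without and 7.34, 6.65, 7.39, 6.86, 7.07 and 7.51 with vitamin C. In both genes the daily means of days 3, 5 and 10 all lay above those of days 4, 6 and 8. That order was found in 5 of the 32 genes (15.6%) and in 13.9% of all genes, and the reverse in 6 of the 32 (18.8%), Mvk, Dhcr7, Srebf1, Srebf2, Scap and Scd1, and in 14.2% of all genes. The up-and-down was thus a feature of many genes of these arrays. In the isoprenoid branches 4 of 9 genes were called negative, led by Pggt1b (-0.84) and Ggps1 (-0.64), and 1 positive, Fntb (0.58), and 1 of 19 cell cycle genes, Bub1 (-0.53), was called. For genes in either order, a comparison that takes 1 day from each set, such as day 3 with day 4, mixes this pattern with the time course. For such genes day 3 with day 10 and day 4 with day 8 each stay on 1 side of it. Of the members called lower on day 10 than on day 3, only Hmgcs1 was in either order. The up-and-down was tested over days 3 to 6 alone, so the side of days 8 and 10 was not tested.

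**Figure D5:**
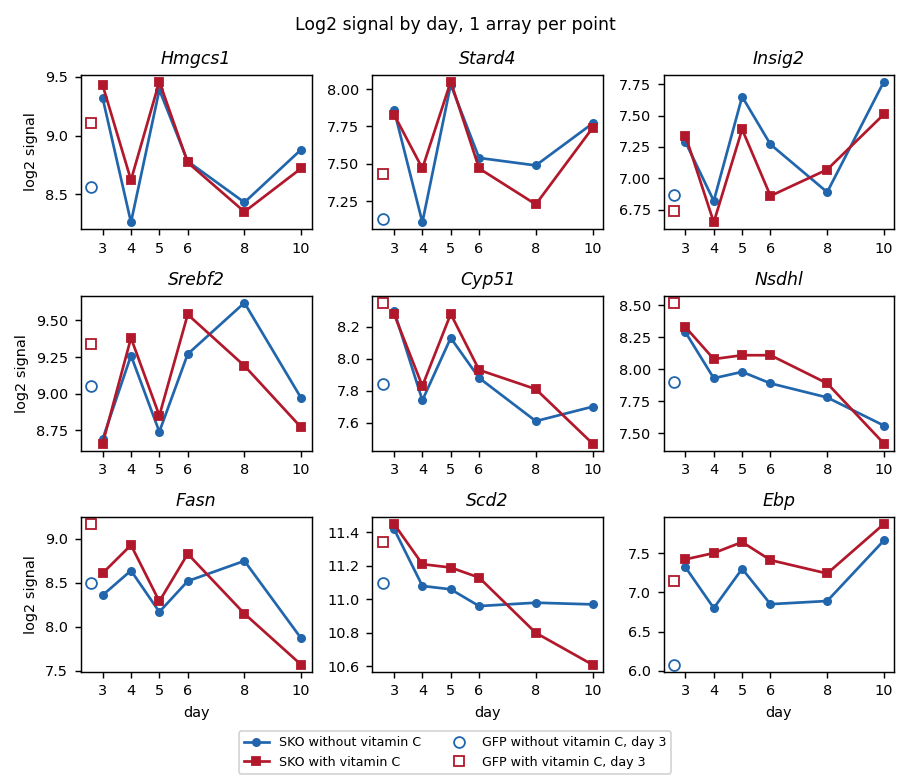
Log2 signal by day (horizontal axis) of 9 members in SKO cells without vitamin C (blue circles) and with it (red squares), 1 array per point; the open symbols, drawn left of day 3, are the GFP arrays of day 3. Hmgcs1 and Stard4 are high on days 3 and 5 in both arms, Srebf2 is low on those days, and Nsdhl and Scd2 end lowest on day 10 with vitamin C.

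How alike the members were over the 12 SKO arrays was described by the Pearson correlation of each with the mean of the other sterol enzymes. The points share days, arms and culture, so the values are a description. Cyp51 (0.94), Lss (0.92), Idi1 (0.89), Nsdhl (0.86) and Sc5d (0.85) were the most alike of the sterol enzymes. Fdft1 (0.34), Mvk (0.15), Ebp (0.08) and Dhcr7 (0.06) were the least alike. Among the fatty acid genes Scd2 (0.87), Acss2 (0.82) and Elovl6 (0.81) were near the sterol enzymes, and Fasn (0.36) and Scd1 (0.10) were not. Insig1 had 0.64 and Stard4 0.58, and the values were below 0 for Srebf2 (-0.41), Srebf1 (-0.26) and Scap (-0.24).

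Genes outside the set were ranked by likeness to the mean of the 17 sterol enzymes over these arrays. Predicted genes, clone names and unnamed probes were left out. The first 8 were Nusap1 (0.93), Srpk1 (0.90), Coq3 (0.90), Csnka2ip (0.89), Cdca7l (0.89), C1ql3 (0.89), Retn (0.89) and Rrm1 (0.89). Nusap1 acts on the mitotic spindle, Rrm1 is a subunit of ribonucleotide reductase, and Coq3 acts in ubiquinone synthesis. Nusap1 measured 6.88 and 7.13 on day 3 and 6.38 and 6.27 on day 10, without and with vitamin C. Csnka2ip and Retn lay between 3.81 and 4.98 on all SKO arrays, near the low end of the signals.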

How the data were processed

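Total RNA was hybridised to Affymetrix whole-transcript arrays, 1 per culture. The authors deposited probe values made with RMA and Partek, per the submitters' processing notes, with versions not given in the sources used here. Deposited values were read as log2 signals from their range (0.724 to 14.1), since the log base is not stated. RMA compresses differences of weak genes. Of 28853 probes, 21789 had 1 symbol in the platform annotation, 1621 several and 5443 none, and a gene was represented by its brightest probe. Idi1, Fdft1 and Acaca had 2 probes each (r between them 0.971, 0.869 and 0.762). RefSeq GRCm38.p6 held 19856 of the 19938 genes.

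All tests were two-sided limma 3.58.1 fits in R 4.3.3 (lmFit, eBayes), with Benjamini-Hochberg adjustment over 19938 genes at 0.05. The factor day paired the arrays in the vitamin C fit, vitamin C was a term in the day fits, and virus-and-day with vitamin C in SKO against GFP, with 4 to 6 residual degrees of freedom. The members, lists and tests were chosen with earlier results of these data known. All members were named, and of other lists at most 4 called genes per comparison, by size. The 8 genes most like the sterol enzymes, predicted genes and clone names left out, were also named. The code was tested on simulated data. Alternatives were other scalings, a filter on low signals, other variance models, array weights, mean probes, no block, and leaving out days or arrays. Figures were drawn with matplotlib 3.10.9.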

Additional observations from a re-analysis of the deposited data

Results flagged for a closer look

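In 96 series of 6 values (each gene in each SKO arm, and each gene's vitamin C differences) the highest or lowest value was compared with its nearest neighbour, and 1 stood apart (1.04%, where chance gives about 1 in 20). It was Scd2 in SKO cells without vitamin C on day 3, at 11.42, with the other 5 days between 10.96 and 11.08. The treated array of the same day was also the highest of its arm, at 11.45. Leaving out the untreated day 3 array is among the alternatives given next.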

How the results depend on the processing

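Under other scalings, filters, variance models and probe summaries, 0 members were called for the slope of the vitamin C difference and for GFP against SKO cells. For vitamin C in SKO cells the counts were also 0 with no replicate block (the day, which pairs the arrays), with day as a number and without each day, and 1 higher with an intensity trend. For SKO against GFP, higher calls went from 5 to 3 after quantile normalization and 0 with SKO day 4, and leaving out single arrays gave 0 to 5; lower calls were 1 after quantile normalization and with array weights, 2 without the genes of lowest signal and with an intensity trend, and 0 to 2 without single arrays. With SKO day 4, Hsd17b7 had -0.095 and Insig2 -0.073, the sign turned. For day 10 against day 3, lower calls were 9 to 16 under the other scalings and models, 1 to 12 without single arrays, 1 against day 5 and 0 for day 8 against day 4, where Sqle had 0.309 and Msmo1 0.056, the sign turned. Changes over any day were 21 with an intensity trend, 2 within days 3, 5 and 10, 0 within days 4, 6 and 8, and 3 to 5 without day 3 or day 10. The positive up-and-down calls were 1 after quantile normalization and median centring and 4 with an intensity trend, array weights or days 3 to 6 alone. Leaving out arrays leaves 1 array on a side, and the other causes were not tested. For the counts of members here and above, the share of all genes called under the same setting is not given. Whether the members or all genes lost or gained calls cannot be told from them. Of 444 values of single genes 307 kept direction and side, 133 kept direction only and 4 turned. The 444 include the values for a change over any day, which are ranges above 0 and could not turn. The number of arrays, 2 a day and 1 for each GFP condition, limits the precision. Median centring moved no array by over 0.055.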

Other observations

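Genes that bring sterol in and send it out did not share one course in SKO cells. Abca1, which exports cholesterol, measured 8.53 on day 3 and 9.86 on day 10 without vitamin C, and 8.99 and 9.68 with it, the highest treated value being 10.01 on day 5. Lrp8, a lipoprotein receptor, measured 7.29 and 5.62 with vitamin C on the same days, and 6.01 on day 10 without it. Vldlr was also lower with vitamin C in the GFP pair, at 7.20 against 8.37, and Cyp27a1 was not higher there, at 5.08 against 5.12. Cyp7b1 measured 7.98 in GFP cells with vitamin C and between 5.45 and 6.39 in SKO cells with vitamin C on days 3 to 6.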
